A study of Piaractus mesopotamicus with 6 samples.

Results

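The genes described here encode the nuclear parts of respiratory complexes II to V and cytochrome c. They were every gene whose symbol begins with sdha to sdhd, sdhaf, uqcr, cyc1, cycs, cox4 to cox8 or atp5, ignoring case, with the transcript of highest mean standing for each symbol. This gave 57 members among 16347 named genes: 8 of complex II, 10 of complex III, 1 cytochrome c, 20 of complex IV and 18 of complex V. All 57 passed the filter on low values, a normalised count of 10 reached in 3 or more libraries.

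Each of these complexes sits in the inner mitochondrial membrane. Complex II passes electrons from succinate to the quinone pool, complex III passes them on to cytochrome c, and complex IV (cytochrome c oxidase) hands them to oxygen, while complex V (ATP synthase) uses the resulting proton gradient to make ATP. In mammals, several small subunits of complex IV exist as pairs, with one form in heart and skeletal muscle and another in most other tissues, so they tell differentiated muscle from other cells as well as reporting on respiration.

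The animals were wild-type juveniles of the pacu, Piaractus mesopotamicus, a freshwater fish of South America, weighing 12 to 20 g, kept at 28 °C with 12 h of light and fed freely. The first group was a primary culture of muscle cells in DMEM supplemented with serum (10%, fetal bovine) and antibiotics (1%), made from the fast-twitch muscle of 12 animals per isolation (3 libraries, called cells). Its comparison was fast-twitch epaxial muscle taken from 6 animals (3 libraries, called tissue). Whether a tissue library holds 1 animal or several, and whether the cell libraries come from separate isolations, was not stated. The p-values therefore do not reach beyond these libraries, and limma's SE and p also draw on the variance of other transcripts. Poly(A) RNA was sequenced, and values are size-factor-normalised counts per assembled transcript.

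The libraries held 105795157 to 115224600 reads in cells and 118183731 to 124752600 reads in tissue. The authors' size factors differed far more than these totals, so that 1 read was worth 0.391 to 0.439 normalised counts in cells and 1.98 to 2.67 in tissue. On the deposited scale the median log2 change of all 15496 tested names, cells minus tissue, was 0.59; with the libraries scaled to equal totals it was 3.12. Equal-totals values therefore stand beside the deposited ones below. Ratios within a library, which scaling touches only through the 1 added to each value, carry the comparison of paralogs. Markers of fast fibres summed to 503 to 4809 normalised counts in cells and 12812124 to 18726161 in tissue, with 11 of 12 lower in cells, with pvalb4 at 0 in cell library 1 and none at 0 in another library. Of 7 fibroblast markers 4 were higher in cells and 1 lower (sums of 835450 to 1123240 in cells and 329845 to 406951 in tissue, no marker at 0) on the deposited scale. Lower in cells on that scale were also 5 of 7 slow-fibre, 3 of 5 endothelial, 2 of 2 erythroid, 2 of 2 leukocyte and 1 of 2 adipocyte markers found. On equal totals 10 fast-fibre, 5 slow-fibre, 2 endothelial, 2 erythroid, 1 leukocyte, 1 fibroblast and 0 adipocyte markers were lower. Higher there were 6 fibroblast, 2 endothelial and 2 adipocyte markers. Of all tested names 21.7% were lower and 30.5% higher on the deposited scale, and 7.73% lower and 78.8% higher on equal totals. The counts of markers higher on equal totals are therefore not read as an excess. The fibroblast marker lower under both scalings was postnb (-3.34, and -0.80 on equal totals). Of 5 myogenic markers pax7b was higher in cells (925 to 1133 in cells, against 302 to 538 in tissue), myod1 was lower (39.9 to 238 in cells, against 1069 to 1297 in tissue), and pax7a, myf5 and myog did not pass. On equal totals pax7b and myf5 were higher and the other 3, myod1 included (-1.12), did not pass. Fewer cells of a type and less RNA per cell cannot be told apart in such samples, and the part of cell makeup in the changes below was not tested. Cell library 1 (the lowest fast-fibre sum) and tissue library 1 (a slow-fibre sum of 27306, against 62166 and 101152 in the other two) stood apart.

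On the deposited scale 49 of the 57 members were lower in cells, 3 were higher and 5 did not pass limma's test at an adjusted p of 0.05. Of all tested names 21.7% were lower and 30.5% higher. After scaling to equal totals 5 members were lower, 24 higher and 28 did not pass, where 7.73% of all names were lower and 78.8% higher. In 50 members every cell library lay below every tissue library on the deposited scale, a pattern shown by 25.8% of all tested names. In 3 members every cell library lay above, a pattern whose share of all names was not counted, and in 4 the groups overlapped. Relative to the median of all names, 53 of the 57 members lay lower in cells, with a median log2 change of -2.19 on the deposited scale, which is -2.77 relative to all names under either scaling and 0.35 on equal totals. Without cell library 1 and tissue library 1, 47 members were lower and 3 higher on the deposited scale.

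Of the members called on the deposited scale, 8 had the same call on equal totals. The 5 lower under both were cox6a2, cox7a1, cox8b, cox5b2 and cox4i1l, and the 3 higher under both were cox6a1, COX5B and COX7A2. All 8 belong to complex IV. Equal totals raises the change of nearly every gene (all-names median 0.59, then 3.12), so the 3 higher members kept their direction by construction. The share of all names with the same call under both scalings was not counted. Of all names 7.73% were lower on equal totals and 30.5% were higher on the deposited scale. The counts of 5 and 3 are therefore not read as an excess among the members. A further 17 members were lower on the deposited scale and higher on equal totals, 27 were lower and then did not pass, and 4 did not pass and were then higher; uqcrh passed under neither.

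**Figure D1:**
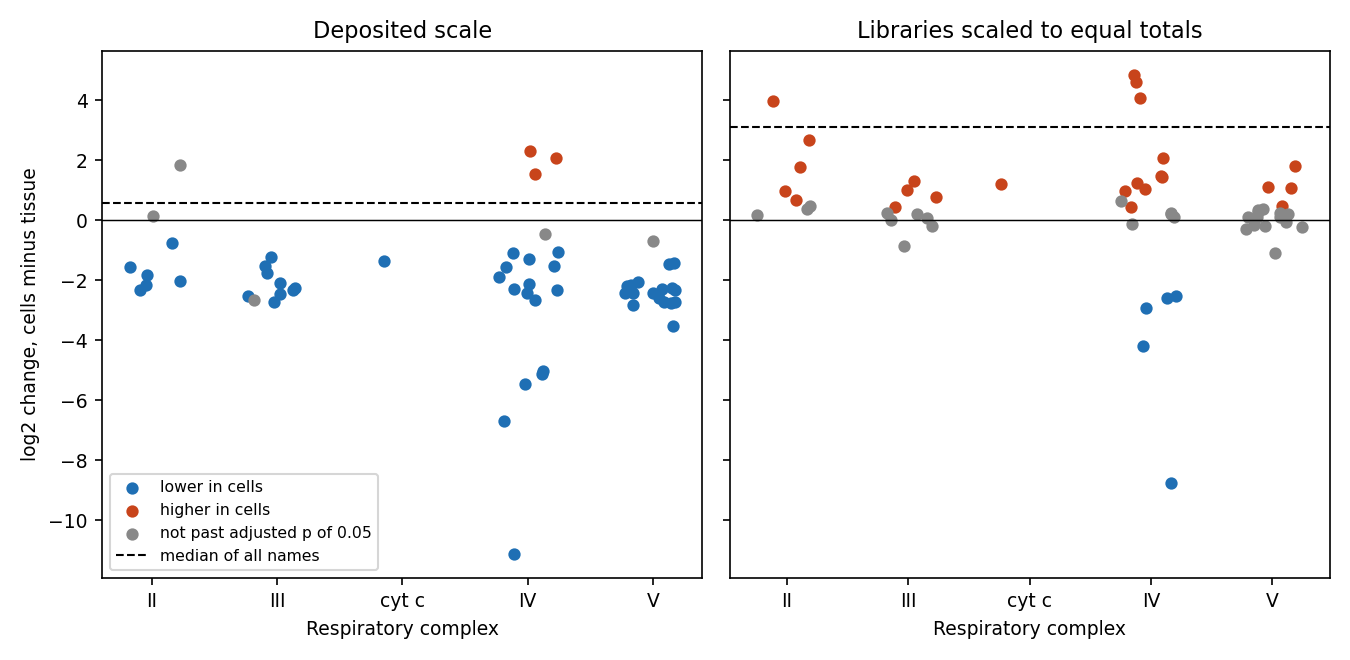
Log2 change, cells minus tissue, of each of the 57 members by complex, on the deposited scale (left) and with libraries scaled to equal totals (right); each point is 1 gene, coloured by limma's call, and the dashed line is the median of all tested names (0.59 and 3.12). Complexes III and V form tight groups that are lower in cells on the left and near 0 on the right, while complex IV spreads from -11.13 to 2.32 on the left.

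The complexes differed mainly in how uniform they were. The 18 members of complex V had a median log2 change of -2.38 on the deposited scale (-2.96 relative to all names, and 0.16 on equal totals) with an SD of 0.63 among members, and the 10 of complex III had -2.31 (-2.89, and 0.23) with an SD of 0.50. The 20 members of complex IV had -2.00 (-2.59, and 0.54) with an SD of 3.14. Complex II had -1.70 (-2.29, and 0.83), the least negative of the 4 complexes on the deposited scale and the highest on equal totals, with an SD of 1.44 over 8 members. Of these 8, 4 are assembly factors, and the 4 subunits alone had -1.30 (-1.88, and 1.24) with an SD of 1.05. Cytochrome c changed by -1.34 (-1.92, and 1.2). These medians are descriptions of unequal groups of genes, and their differences were not tested.

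Complex II is succinate dehydrogenase, in which sdha carries the flavin, sdhb the iron-sulfur clusters, and sdhc and sdhd anchor the enzyme in the membrane. The flavoprotein gene sdha was at 1359, 1427 and 1205 normalised counts in cells, against 851, 1394 and 1448 in tissue. The groups overlapped, and its log2 change of 0.15 ± 0.24 (SE) did not pass the test (limma adjusted p = 0.623), while on equal totals it was 2.69 and passed. Its partner sdhb was at 1169, 877 and 615 in cells, against 4523, 2585 and 2502 in tissue. Every cell library lay below every tissue library, with a log2 change of -1.84 ± 0.32 on the deposited scale (limma adjusted p = 0.00306) and 0.69 on equal totals. The anchor gene sdhdb was at 626, 512 and 399 in cells, against 2183, 2305 and 2238 in tissue, a change of -2.15 ± 0.20 (limma adjusted p = 0.000169) that was 0.39 and did not pass on equal totals. The other anchor, sdhc, averaged 432 ± 54.2 in cells and 727 ± 79.3 in tissue (SD over 3 libraries of a group), a change of -0.75 on the deposited scale (limma adjusted p = 0.0136, and 0.0507 without cell library 3) and 1.79 on equal totals. So the 4 subunit genes of this small enzyme did not shift alike, with deposited-scale changes from -2.15 to 0.15. The changes differed within the catalytic part (0.15 and -1.84) and within the anchor (-0.75 and -2.15). The medians of these parts, of 2 genes each, were -0.85 and -1.45 (1.69 and 1.09 on equal totals), and they were not compared by a test. The values of sdha and sdhb are those of 1 transcript each. Past the filter, 2 transcripts of sdha were lower and 3 higher, and 2 of sdhb were lower and 1 higher.

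The sdhaf genes encode assembly factors that help sdha and sdhb mature. Of these, sdhaf1 was at 32.1, 28.97 and 50.1 in cells, against 171, 169 and 117 in tissue. On the deposited scale the groups did not overlap, and the log2 change was -2.03 ± 0.44 (limma adjusted p = 0.00825). On equal totals it was 0.47 and did not pass the test. For sdhaf2, which helps attach flavin to sdha, the values were 313, 184 and 165 in cells, against 693, 490 and 726 in tissue (-1.56 ± 0.31, limma adjusted p = 0.00538; 0.97 and higher on equal totals). For sdhaf4 they were 36.4, 67.2 and 46.6 in cells, against 334, 216 and 211 in tissue (-2.33 ± 0.39, limma adjusted p = 0.00264; 0.18 on equal totals, not past the test). On the deposited scale both again separated the groups completely. In reads, sdhaf4 overlapped, with 93, 153 and 107 in cells and 125, 109 and 106 in tissue. The reads of sdhaf2 were higher in every cell library (801, 419 and 379, against 259, 247 and 365 in tissue). The scarce sdhaf3 was at 18.4, 26.3 and 25.7 in cells, against 0, 13.9 and 19.9 in tissue. A count of 0 in tissue library 1 allows up to 8.02 normalised counts (3 reads, counting error only). The change of sdhaf3 on the deposited scale, 1.84 ± 1.2, did not pass (limma adjusted p = 0.242). On equal totals it was 3.97 and called higher, from 0, 7 and 10 reads in tissue.

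Complex III, the cytochrome bc1 complex, has 2 large core proteins (uqcrc1 and uqcrc2), nuclear redox subunits (cytochrome c1, cyc1, and the Rieske iron-sulfur protein, uqcrfs1) and small subunits around them. Of its 10 members 9 were lower in cells on the deposited scale; on equal totals none were lower and 4 were higher. The core gene uqcrc1 was at 2108, 2054 and 1671 in cells, against 6551, 7268 and 5809 in tissue, a log2 change of -1.75 ± 0.17 (limma adjusted p = 0.000218) that turned to 0.79 on equal totals. On the deposited scale cells and tissue were each tight and far apart. The Rieske gene uqcrfs1 was at 974, 1054 and 890.3 in cells, against 7578, 5511 and 6376 in tissue. At -2.73 ± 0.17 (limma adjusted p = 4.84e-05) it had the largest drop among called members of the complex, and at -0.19 on equal totals it kept its sign without passing the test. One of the uqcrc2 copies, uqcrc2a, was at 872, 963 and 771 in cells, against 4876, 4233 and 3569 in tissue (-2.27 ± 0.18, limma adjusted p = 9.83e-05; 0.26 on equal totals, not past the test).

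The other copy, uqcrc2b, changed by -1.52 on the deposited scale (1.02 on equal totals), so that the log2 ratio of uqcrc2a to uqcrc2b averaged 0.37 ± 0.12 in cells and 1.13 ± 0.40 in tissue (SD over 3 libraries of a group). Cytochrome c1 averaged 901 ± 60.6 in cells and 3886 ± 411 in tissue, a change of -2.10 that was 0.44 on equal totals. The small subunits uqcr10, UQCR11, uqcrb and uqcrq changed by -2.52, -2.34, -2.45 and -1.22 on the deposited scale, of which only uqcrq, at 1.32, was called on equal totals. The hinge gene uqcrh, which lies where cytochrome c docks, was nearly unread. It had 0, 16 and 28 reads in cells and 42, 2 and 23 in tissue, so its change of -2.65 ± 1.45 (limma adjusted p = 0.17) says little about the gene. Mobile cytochrome c itself, cycsb, was at 825, 1173 and 842 normalised counts in cells, against 1998, 2583 and 2550 in tissue. Every cell library lay below every tissue library on the deposited scale (-1.34 ± 0.20, limma adjusted p = 0.00161), while on equal totals the change was 1.2 and passed as higher.

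Complex IV held the widest range. Its catalytic core is encoded by the mitochondrial genome, and the nuclear subunits around it tune its activity. The subunit 6a genes showed the largest contrast. In mammals cox6a2 is the heart and muscle form and cox6a1 the form of most other tissues. The muscle form, cox6a2, was at 6.26, 9.66 and 3.49 normalised counts in cells (16, 22 and 8 reads), against 18556, 13838 and 15144 in tissue. Its log2 change was -11.13 ± 0.34 on the deposited scale (limma adjusted p = 7.05e-06) and -8.75 on equal totals. The ubiquitous form, cox6a1, was at 2051, 2562 and 2043 in cells, against 337, 561 and 452 in tissue, with a change of 2.32 ± 0.23 (limma adjusted p = 0.000214; 4.86 on equal totals). Neither gene's values overlapped between cells and tissue.

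Subunit 7a showed the same kind of exchange. The muscle form in mammals, cox7a1, was at 53.2, 62.8 and 24.4 in cells, against 5711, 3600 and 4719 in tissue (-6.69 ± 0.38, limma adjusted p = 3.21e-05; -4.18 on equal totals). The ubiquitous form, COX7A2, was at 684, 729.5 and 404 in cells, against 302, 143 and 187 in tissue (1.54 ± 0.36, limma adjusted p = 0.0113; 4.08 on equal totals). This rise was the least firm of the 3: without cell library 2 the adjusted p was 0.0549, and summing all 6 transcripts of the name gave 0.63 (limma adjusted p = 0.0333). A second ubiquitous-type copy, cox7a2a, was at 228, 192 and 186 in cells, against 235, 331 and 265 in tissue. On the deposited scale the groups did not overlap, but the change of -0.44 ± 0.24 did not pass (limma adjusted p = 0.166). On equal totals it was 2.09 and called higher. These are values of 1 transcript of the name: of 16 past the filter, 9 were lower and 7 higher, and their sum changed by 0.04. COX7A2L, which in mammals joins complexes III and IV in supercomplexes, behaved unlike its namesake. It was at 616, 592 and 402 in cells, against 3592, 3519 and 2956 in tissue, a change of -2.66 ± 0.21 (limma adjusted p = 0.000101) that was -0.12 and did not pass on equal totals.

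In subunit 8, cox8b is the heart and muscle form in many mammals and cox8a the ubiquitous one. The cox8b gene was at 134, 133 and 126 in cells, against 7180, 3898 and 6819 in tissue (-5.45 ± 0.26, limma adjusted p = 1.82e-05; -2.91 on equal totals). The cell libraries were nearly identical and all far below tissue. The cox8a gene was at 1389, 1846 and 1549 in cells, against 4705, 3285 and 3774 in tissue (-1.29 ± 0.20, limma adjusted p = 0.00161), a direction that turned to 1.25 on equal totals.

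**Figure D2:**
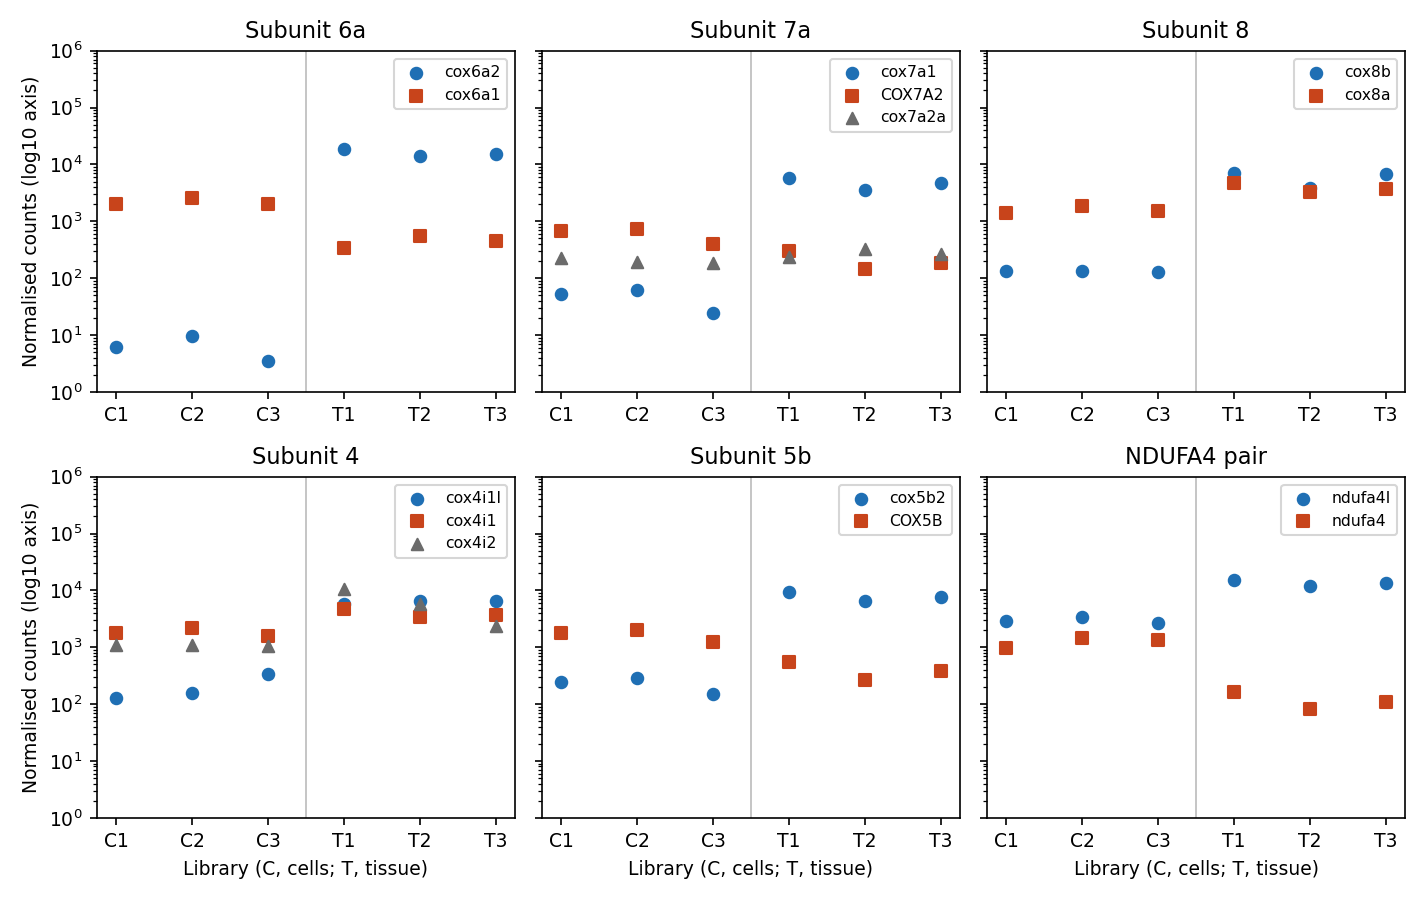
Normalised counts (log10 axis, deposited scale) of the paralogs of 5 subunit families of complex IV and of the NDUFA4 pair in each library (C1 to C3, cells; T1 to T3, tissue); each point is 1 gene in 1 library. The form drawn as a blue circle is lower in all 3 cell libraries than in all 3 tissue libraries in every panel, a direction that turns for ndufa4l on equal totals (0.36), and cox6a2 lies between 3.49 and 9.66 in cells.

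Within each library, the log2 ratio of muscle to ubiquitous form was taken as log2((muscle form + 1)/(ubiquitous form + 1)). Scaling between libraries touches this ratio only through the 1 added to each value. For cox6a2 over cox6a1 it averaged -8.30 ± 0.48 in cells and 5.15 ± 0.58 in tissue, a difference of -13.45. For cox7a1 over cox7a2 (COX7A2) it averaged -3.72 ± 0.25 in cells and 4.51 ± 0.24 in tissue, a difference of -8.23. For cox8b over cox8a it averaged -3.59 ± 0.21 in cells and 0.57 ± 0.31 in tissue, a difference of -4.16 (SD over 3 libraries of a group throughout). In all 3 families every cell library lay below every tissue library. Each two-sided exact permutation test over the 6 libraries gave p = 0.1, the smallest this design allows, and 0.1 when adjusted over the 3 pairs. Leaving out any 1 library moved the differences only within -13.72 to -13.14, -8.37 to -8.10 and -4.32 to -4.01. Other settings moved the first 2 further, with -12.77 for cox6a2 over cox6a1 at a pseudocount of 5. Summed transcripts gave -7.43 for cox7a1 over cox7a2. COX7A2 was used there as the ubiquitous copy of highest mean, and its own rise (1.54 on the deposited scale) enters the difference. The other copy, cox7a2a, changed by -0.44, and the ratio to it was not taken. On equal totals cox6a2 over cox6a1 was at -13.61. The level of a ratio also depends on transcript length, so only its difference between groups is read here.

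A further pair of families, picked after their values were seen and so given without a test, showed ratios of similar shape. For subunit 4, the gene named cox4i1l was at 129, 157 and 336 in cells, against 5730, 6556 and 6586 in tissue (-5.04 ± 0.35, limma adjusted p = 6.5e-05; -2.51 on equal totals). The form of most tissues, cox4i1, was at 1757, 2143 and 1595 in cells, against 4662, 3422 and 3622 in tissue (-1.09 ± 0.19, limma adjusted p = 0.00332), and turned to 1.45 on equal totals. Their log2 ratio averaged -3.26 ± 0.88 in cells and 0.70 ± 0.35 in tissue, with cell library 3 nearest to tissue at -2.25. For subunit 5b, cox5b2 was at 249, 286 and 148 in cells, against 9330, 6419 and 7732 in tissue (-5.13 ± 0.28, limma adjusted p = 2.92e-05; -2.60 on equal totals). COX5B was at 1759, 2032 and 1229 in cells, against 559, 266 and 378 in tissue (2.09 ± 0.32, limma adjusted p = 0.00164; 4.63 on equal totals). The ratio of cox5b2 to COX5B averaged -2.90 ± 0.13 in cells and 4.33 ± 0.27 in tissue. The reads named COX5B were spread over several assembled genes, and their sum gave a change of 2.43.

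Other paralogs of complex IV among the members follow. The second subunit 4 gene, cox4i2, a form regulated by oxygen in mammals, was at 1111, 1100 and 1052 in cells, against 10569, 5824 and 2407 in tissue. The 3 cell libraries were nearly the same while tissue spanned a wide range, highest in tissue library 1, and the change was -2.28 ± 0.49 (limma adjusted p = 0.0079; 0.26 on equal totals, not past the test). Of the subunit 6b genes, cox6b1 was at 613, 551 and 349.9 in cells, against 1206, 1525 and 1613 in tissue (-1.55 ± 0.25, limma adjusted p = 0.00232; turned to 0.99 on equal totals). The cox6b2 gene, a testis form in mammals, was at 1915, 2392 and 1534 in cells, against 10868, 8034 and 9944 in tissue (-2.32 ± 0.22, limma adjusted p = 0.000193; 0.22 on equal totals, not past the test). Their log2 ratio differed by -0.77 between cells and tissue, that of cox5aa to cox5ab by -1.37, and that of the ATP synthase pair atp5mc3b to atp5mc1 by -0.71.

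**Figure D3:**
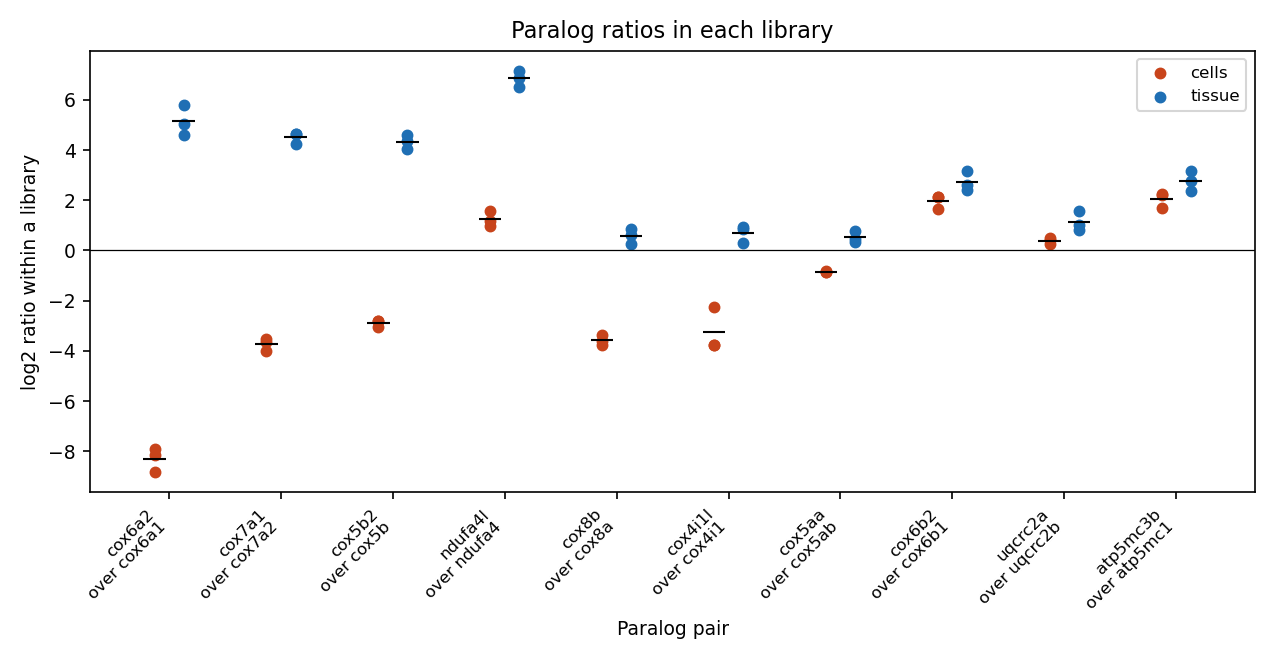
Log2 ratio of paralogs within each library, for 10 pairs; each point is 1 library, cells left and tissue right of each tick, and bars are the means of 3 libraries. The distance between cells and tissue is widest for cox6a2 over cox6a1 (-13.45), cox7a1 over cox7a2 (-8.23), cox5b2 over cox5b (-7.23) and ndufa4l over ndufa4 (-5.61), while height against 0 also depends on transcript length.

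The subunits of complex IV that have no second form among the members followed the other complexes. For cox6c, cox7b and cox7c the deposited-scale log2 changes were -2.11, -1.51 and -1.89, against 0.43, 1.03 and 0.65 on equal totals. A small subunit outside the naming rule, NDUFA4, is now counted with complex IV and showed a shift in paralog ratio of its own. The ndufa4 gene was at 966, 1474 and 1368 in cells, against 163, 83.3 and 111 in tissue (3.43 ± 0.31, limma adjusted p = 0.000154; 5.96 on equal totals). Its relative ndufa4l was at 2905, 3353 and 2676 in cells, against 15148, 12035 and 13266 in tissue (-2.18 ± 0.18, limma adjusted p = 0.000114). On equal totals ndufa4l turned to 0.36 and did not pass the test. The log2 ratio of ndufa4l to ndufa4 averaged 1.25 ± 0.31 in cells and 6.86 ± 0.32 in tissue, a difference of -5.61. It is given without a test because the pair was picked after its values were seen.

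Of the mitochondrial genes of the catalytic core, COX1 and COX3 together took 2.51 ± 0.0528% of reads in cells and 1.38 ± 0.149% in tissue (SD over 3 libraries of a group). These are shares of the reads on the transcripts that stand for the named genes, not of all reads. On the deposited scale COX1 averaged 266821 ± 8444 normalised counts in cells and 1060968 ± 138616 in tissue (SD over 3 libraries of a group), without overlap. Its change of -1.98 ± 0.82 did not pass (limma adjusted p = 0.0841) and was 0.56 on equal totals. That SE also draws on the variance of other transcripts. COX3 averaged 63412 ± 6964 in cells and 198401 ± 10831 in tissue (-1.65 ± 0.39, limma adjusted p = 0.0123; turned to 0.89 and higher on equal totals). The call for COX1 appeared without tissue library 1 (limma adjusted p = 0.0252), and that for COX3 was lost without cell library 2 (0.121) or cell library 3 (0.112). Other rows with mitochondrial names held few reads. COX2 was at 0.782, 44.8 and 49.2 in cells, against 374, 268 and 223 in tissue (-4.14 ± 1.28, limma adjusted p = 0.0338; -1.87 on equal totals, not past the test). A row named mt-co1, apart from COX1, was at 3.13, 186 and 166 in cells, against 1228, 1063 and 633 in tissue (-4.21 ± 1.41, limma adjusted p = 0.0444; -1.77 on equal totals, not past the test). Both were nearly unread in cell library 1, and both kept a negative sign on equal totals, where COX1 and COX3 were positive. The complex III gene CYTB (-4.43, lower; -2.51 on equal totals, not past the test) and mt-atp6 of complex V (-4.65, limma adjusted p = 0.0592; -2.72) likewise were at 0 in cell library 1. Set against COX1 within the same library, the nuclear subunit cox6c had a log2 ratio of -7.49 ± 0.13 in cells and -7.36 ± 0.20 in tissue, and atp5fa1 had -5.50 ± 0.10 in cells and -5.43 ± 0.06 in tissue. These 2 ratios, chosen after their values were seen, differed by -0.13 and -0.08, and they do not stand for all members. Over the 57 members the log2 ratio to COX1 lay lower in every cell library than in any tissue library for 18 and higher for 15, and it overlapped for 24; of all tested names 10.2% lay lower and 76.1% higher in this way. The median difference of that ratio, cells minus tissue, was -0.20 for the members, with quartiles of -0.54 and 0.54, and 2.57 for all names. Poly(A) selection captures mitochondrial transcripts unevenly, so the level of these ratios is not that of the genes in the cell.

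Complex V changed as a block of like values. Its F1 head, which makes ATP, is joined through a peripheral stalk to the membrane part (Fo), where a ring of c subunits turns. The catalytic beta subunit gene atp5f1b was the highest of the members by count, at 8790, 8706 and 7636 in cells, against 49166, 45326 and 41566 in tissue. Its log2 change was -2.44 ± 0.21 (limma adjusted p = 0.000129), and 0.10 on equal totals, where it did not pass. The alpha subunit gene atp5fa1 was at 6309, 6045 and 5340 in cells, against 28269, 24054 and 21675 in tissue (-2.06 ± 0.20, limma adjusted p = 0.000196), and turned to 0.48 and higher on equal totals. The ring gene atp5mc3b was at 3649, 4567 and 2645 in cells, against 19757, 13040 and 15142 in tissue (-2.16 ± 0.27, limma adjusted p = 0.000583; 0.38 on equal totals, not past the test). All 3 were lower in every cell library on the deposited scale.

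By part of the enzyme, the deposited-scale medians were -2.44 for the 5 genes of the F1 head (0.10 on equal totals), -2.29 for the 4 of the peripheral stalk (0.25), -2.71 for 5 membrane subunits (-0.17), and -1.80 for the 2 ring genes (0.74). The 4 stalk genes ran only from -2.84 to -2.19. The largest called drop within complex V on the deposited scale was that of atp5md, a small membrane subunit of the synthase (also called DAPIT). It was at 17.2, 7.9 and 7.84 in cells, against 90.9, 210.3 and 109 in tissue (-3.52 ± 0.65, limma adjusted p = 0.00394; -1.08 on equal totals, not past the test), from 18 to 44 reads in cells. Among the other membrane genes, atp5mea was carried by 83 transcripts of unequal behaviour, of which 23 were lower and 43 higher among the 66 that passed the filter. Their sum changed by -0.64, against -2.71 for its highest transcript. The medians given for the 5 membrane subunits (-2.71, and -0.17 on equal totals) are the values of that 1 transcript. The membrane part is therefore not read as more reduced than the F1 head.

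The synthase inhibitors block the enzyme from running backwards. On the deposited scale both were less reduced than the median of each part of the enzyme, but not than every subunit. The ring gene atp5mc1 changed by -1.45 (1.09 on equal totals), close to atp5if1a, and the summed transcripts of atp5mea by -0.64. The atp5if1a gene was at 1186, 1651 and 1553 in cells, against 3814, 3686 and 4199 in tissue (-1.43 ± 0.18, limma adjusted p = 0.000599; turned to 1.11 and higher on equal totals). Its relative atp5if1b was at 58.3, 38.2 and 21.8 in cells, against 66.9, 79.3 and 39.8 in tissue. The groups overlapped, and its change of -0.69 ± 0.61 did not pass (limma adjusted p = 0.374; 1.80 and higher on equal totals). No test compared the inhibitors with the subunits.

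Shares were taken of each library's reads on the transcripts that stand for the named genes, not of all its reads. No size factor enters such a share, and by it the members as a whole stood higher in cells. They took 0.488 ± 0.0365% of reads in cells and 0.328 ± 0.0116% in tissue (SD over 3 libraries of a group). The log2 change of this share was 0.57. All names had a median change of 3.12 on equal totals, with 78.8% called higher, so the members rose less than the typical name. Complex II took 0.0265% in cells and 0.00925% in tissue, complex III 0.0596% and 0.0376%, complex IV 0.141% and 0.0988%, and complex V 0.253% and 0.180%. The 5 cox forms lower under both scalings took 0.00472 ± 0.00042% in cells and 0.0443 ± 0.00399% in tissue. They were picked as lower on equal totals, so their lower share follows from that choice and adds no support. Beside these, the fast-fibre markers took 0.0223% of reads in cells and 16.5% in tissue, and their part in the members' shares was not tested.

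**Figure D4:**
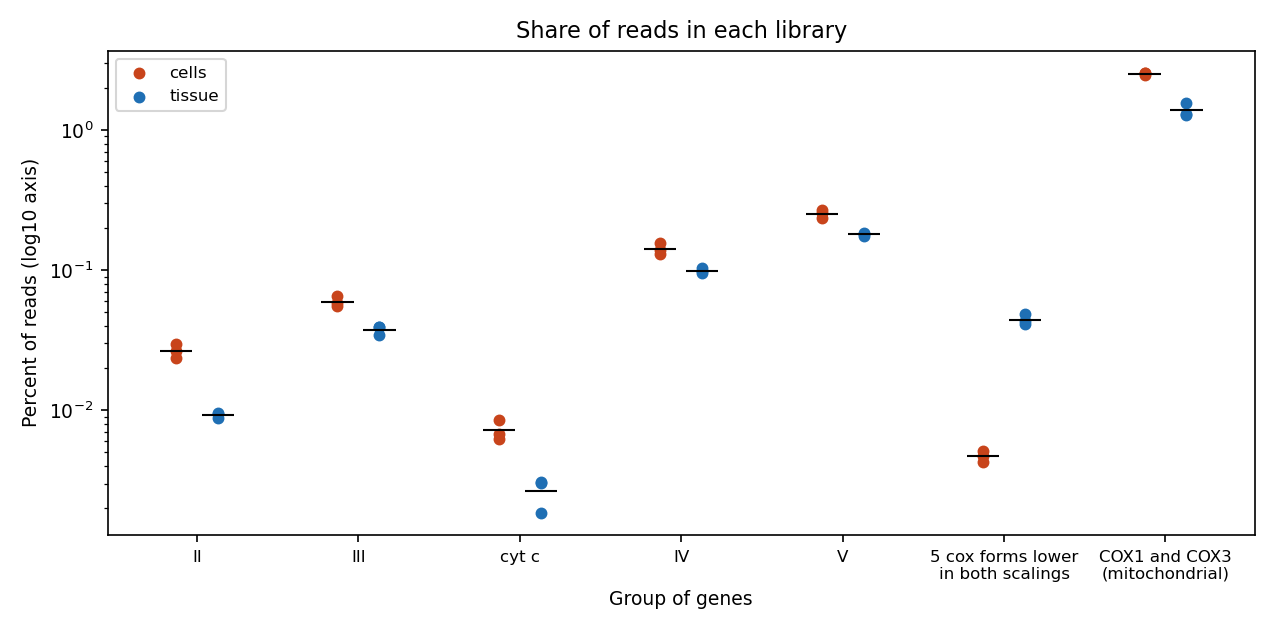
Percent (log10 axis) of each library's reads on the transcripts that stand for the named genes. Shown are the members of each complex, the 5 cox forms lower under both scalings (also counted in complex IV) and mitochondrial COX1 and COX3. Each point is 1 library, cells left and tissue right, and bars are the means of 3. Every complex lies higher in cells, beside 78.8% of all names called higher on equal totals. The 5 cox forms lie lower (0.00472% in cells and 0.0443% in tissue), which follows from their being picked as lower on equal totals.

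Beside the subunits stood a list of assembly factors for complexes III to V, including the proteins that insert copper and haem, of which 39 of the 50 listed were found and tested. On the deposited scale 13 were lower in cells, 2 higher and 24 did not pass, with a median of -0.71 beside 0.59 for all names, of which 21.7% were lower and 30.5% higher. On equal totals 0 of the 39 were lower and 30 higher, where 7.73% of all names were lower and 78.8% higher. None of the 5 complex III factors passed on the deposited scale. The largest called drops were those of taco1, tmem177 and COX17. The translational activator of COX1, taco1, was at 113, 132 and 109.8 in cells, against 1043, 539.6 and 802 in tissue (-2.69 ± 0.28, limma adjusted p = 0.000295; -0.16 on equal totals, not past the test). COX17, a copper chaperone, was at 94.6, 118 and 96.7 in cells, against 685, 331 and 302 in tissue (-1.99 ± 0.36, limma adjusted p = 0.00386; 0.54 on equal totals). For tmem177, which in human cells acts in COX2 assembly, the values were 30.9, 19.3 and 35.3 in cells, against 118, 107 and 115 in tissue (-2.00 ± 0.48, limma adjusted p = 0.0127; 0.50 on equal totals).

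The 2 called higher were fdx2 and hccsb. The mitochondrial ferredoxin fdx2 was at 204, 163 and 127 in cells, against 42.8, 45.6 and 23.9 in tissue (2.13 ± 0.46, limma adjusted p = 0.00777; 4.64 on equal totals). The gene hccsb encodes a holocytochrome c synthase, which attaches haem to cytochrome c. It was at 372, 309 and 248 in cells, against 136, 41.7 and 73.6 in tissue (2.01 ± 0.47, limma adjusted p = 0.0109; 4.54 on equal totals), and without cell library 1 its adjusted p was 0.0527. For both genes the lowest cell library exceeded the highest tissue library. HIGD1A had a larger change, 5.03 ± 1.86, without overlap of the groups, but did not pass (limma adjusted p = 0.0618). With its transcripts summed it was called higher (1.49, limma adjusted p = 0.0104). The second holocytochrome c synthase gene, hccsa.1, went the other way from hccsb, and its change of -1.18 ± 0.53 did not pass (limma adjusted p = 0.109).

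On the deposited scale tissue library 1 gave the highest tissue value for 36 of the 57 members, and cell library 2 the highest cell value for 39. These counts carry the size factors, with 1 read worth 2.67 normalised counts in tissue library 1 and 1.98 and 1.99 in tissue libraries 2 and 3. By share of reads the members took 0.316% in tissue library 1, against 0.329% and 0.339% in tissue libraries 2 and 3. How many of all names were highest in these libraries was not counted. Without tissue library 1 the medians relative to all names were -1.97 for complex II, -2.54 for III, -2.33 for IV and -2.69 for V.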

How the data were processed

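Poly(A) RNA libraries (stranded kit, per the labels' protocols) were made from 3 cell and 3 tissue samples. The deposited table holds size-factor-normalised counts, made by the authors, of 71447 assembled transcripts with gene names; every value was a whole number of reads within a tolerance of 0.01 once divided by its library's smallest step. The submitters' processing notes list Bowtie2, DESeq2, FastQC 0.11.8, GRCz11 and Trimmomatic, with no role or order; counting per assembled transcript can split reads among near-identical copies. 

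Values were tested as log2(value + 1), so changes of low genes are understated, by limma 3.58.1 (R 4.3.3) with an intensity trend, cells minus tissue, over the 65662 transcripts with 10 or more in at least 3 libraries, with Benjamini-Hochberg adjustment over all of them (threshold 0.05, 4 residual and 2.93 prior degrees of freedom). The values are normalised, so edgeR was not used and DESeq2 was not run here. The test was checked on simulated data. Paralog ratios were compared by a two-sided exact permutation test. Replicates were not alike within counting error (58.1 to 219 for chi-square over its degrees of freedom). Alternatives were pseudocounts, filters, scalings, priors, summed transcripts, a replicate block, voom weights and left-out libraries.

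Genes given in every library were, per complex, the 3 members of highest mean, the largest called change in each direction, every called rise, the paralogs of subunits 4, 6a, 6b, 7a and 8, the sdhaf and atp5if1 genes, and the largest called changes of the assembly list; cox5b2 and COX5B were named by mean or call, and the NDUFA4 pair and mitochondrial genes were added. The members and lists were chosen with earlier results of these data known. Python 3.11.15 was used for summaries. Counting intervals and floors of 3 reads cover counting error only.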

Additional observations from a re-analysis of the deposited data

How the results depend on the processing

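The scaling between libraries changed the most calls. On equal totals 5 members were lower and 24 higher in cells, against 49 and 3 on the deposited scale, and of the assembly list 0 were lower and 30 higher, against 13 and 2. The log2 changes, cells minus tissue, that turned sign on equal totals were, in complex II, 0.47 for sdhaf1, 0.97 for sdhaf2, 0.18 for sdhaf4, 0.69 for sdhb, 1.79 for sdhc and 0.39 for sdhdb. In complex III and cytochrome c they were 0.44 for cyc1, 0.02 for uqcr10, 0.20 for UQCR11, 0.09 for uqcrb, 0.79 for uqcrc1, 0.26 for uqcrc2a, 1.02 for uqcrc2b, 1.32 for uqcrq and 1.2 for cycsb. In complex IV they were 1.45 for cox4i1, 0.26 for cox4i2, 0.10 for cox5aa, 1.47 for cox5ab, 0.99 for cox6b1, 0.22 for cox6b2, 0.43 for cox6c, 2.09 for cox7a2a, 1.03 for cox7b, 0.65 for cox7c and 1.25 for cox8a, and outside the members 0.36 for ndufa4l, 0.56 for COX1, 0.89 for COX3, 0.50 for tmem177 and 0.54 for COX17. In complex V they were 0.10 for atp5f1b, 0.24 for atp5f1c, 0.48 for atp5fa1, 1.11 for atp5if1a, 1.80 for atp5if1b, 0.11 for atp5l, 1.09 for atp5mc1, 0.38 for atp5mc3b, 0.11 for atp5mf, 0.29 for atp5pb, 0.35 for atp5pf and 0.21 for atp5po. By construction this scaling moves every gene by nearly the same amount, as the all-names median of 3.12 against 0.59 shows. Both sdha and cox7a2a, whose changes passed no test on the deposited scale, also turned sign elsewhere. With transcripts summed cox7a2a was at 0.04 and sdha at -0.01. Leaving out 1 library at a time gave sdha -0.10 (without tissue library 1) to 0.28, and it was at -0.12 without cell library 1 and tissue library 1 together, an alternative added after the data were seen; the cause was not tested.

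Leaving out each library in turn gave 48 to 49 members lower and 2 to 3 higher, and 8 to 13 assembly factors lower and 1 to 4 higher. The assembly count fell to 8 lower without cell library 2 and without cell library 3, and the higher count was 1 without cell library 1 and 4 without tissue library 1. With both library 1s left out, sdhc (-0.64) and uqcrq (-1.10) no longer passed. The replicate block left 49 members lower and 3 higher. Deviations of same-numbered libraries correlated at -0.0626, -0.0446 and -0.0173. These values showed no pairing by library number but cannot exclude it, since other variation between libraries could hide a shared origin. TMM factors, pseudocounts of 0.5 and 5, no filter, a filter of 50, a robust prior, summed transcripts and voom weights (added after the data were seen) each gave 49 lower and 3 higher, 55 members being tested under the filter of 50. COX1 passed as lower under 7 of the alternatives, with a log2 change of -1.98 and an adjusted p of 4.3e-05 under the robust prior. The planned edgeR and DESeq2 alternatives were not run. With 3 libraries a group the exact tests cannot go below p = 0.1, and uqcrh and sdhaf3 rest on too few reads for a direction.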
